A study of Mus musculus with 6 samples.

Results

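A list of 44 genes of the TGF-beta and bone morphogenetic protein (BMP) pathways was compared between mammary tumour cells depleted of CdGAP and their controls. The genes were chosen by symbol, covering ligands, receptors, SMAD proteins, latency proteins, inhibitors and targets, and all were matched among the 41214 genes of the deposited tables. RNA was sequenced from 3 libraries labelled shCdGAP, of genotype CdGAP KD, and from 3 libraries labelled shCTL, of genotype WT, where sh stands for a short hairpin RNA. Cells of both groups were explants of mouse mammary tumours that grew from NMuMG cells, which are immortalised epithelial cells of normal mouse breast tissue, and both express the receptor tyrosine kinase ErbB2. The labels give no added ligand, time or passage, nor the number of hairpins or clones. Since they also leave unsaid if separate cultures were used, the p-values cover the variation seen among these 6 libraries, and that variation may be technical.

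TGF-beta and activin ligands bind type II receptors, which phosphorylate type I receptors, and these in turn phosphorylate SMAD2 and SMAD3. BMP ligands act through a parallel set of receptors on SMAD1 and SMAD5, and both branches share SMAD4. In mammary epithelium TGF-beta restrains growth and can drive epithelial-mesenchymal transition, and in cells with active ErbB2 it is known to promote migration and invasion, for which CdGAP, a GTPase-activating protein for Cdc42 and Rac1 encoded by Arhgap31, has been described as a mediator.

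Total counts ran from 22088774 to 25893195 in the shCdGAP libraries and from 19176540 to 26824249 in the shCTL libraries. Arhgap31, the targeted gene, was at 1.70, 9.16 and 8.21 CPM (the gene's counts relative to the library's total, scaled between libraries) in shCdGAP replicates 1 to 3, against 13.2, 14.4 and 15.1 CPM in shCTL replicates 1 to 3. Its groups did not overlap, and its log2 fold change of −1.16 did not pass the test (adjusted p = 0.190). Of 8 epithelial markers, the keratin genes Krt8, Krt18 and Krt19 were abundant, with Krt8 at 2853 to 5372 CPM in shCdGAP and 2682 to 4104 CPM in shCTL, and were not called. Cdh1, which encodes E-cadherin, was called higher (log2 fold change 1.72, adjusted p = 0.00193), as was the keratin gene Krt7, at 3.49 to 6.82 CPM in shCdGAP and 1.54 to 2.18 CPM in shCTL (adjusted p = 0.016). Epcam, a surface marker, had 0 counts in shCdGAP and 1.06 to 1.65 CPM in shCTL, the basal keratin gene Krt5 had 2 counts over the shCdGAP libraries and 100 over the shCTL libraries, and both were called lower. Krt14, its basal partner, was at or near 0 in all 6 libraries. The shCdGAP libraries were not alike: the second principal component (21.7% of the variance) parted shCdGAP replicate 1 from replicates 2 and 3. On it, shCdGAP replicates 1 to 3 were at 66.6, −31.4 and −43.2, and shCTL replicates 1 to 3 at 16.4, −3.70 and −4.71. Replicate 1 thus lay on the same side of replicates 2 and 3 in both groups, by less in shCTL. Among the listed pathway genes, the result without shCdGAP replicate 1 is therefore also given where the call changed. Where only the size changed, it is given for some genes and not for all.

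Of the 44 genes, 41 passed the filter on low counts, 11 rose in shCdGAP and 3 fell at an adjusted p under 0.05. Those that rose were Tgfb2, Tgfb3, Inhbb, Bmp2, Tgfbr1, Bmpr1a, Bambi, Smad3, Ltbp4, Pmepa1 and Id2. Those that fell were Bmp7, Tgfbr3 and Ltbp2. The 11 are 26.8% of the tested pathway genes, where 10.4% of all 13483 tested genes were called higher, and the 3 are 7.32%, where 11.4% of all tested genes were called lower. Because the genes were chosen with earlier results of these data known, the shares given here describe the list and do not test it. The groups did not overlap at 25 of the 41 genes (61.0%), where 44.1% of all tested genes had such groups. The median log2 fold change was 0.25 over the tested pathway genes and 0.01 over all tested genes. Against the shCTL mean, the median over the pathway genes was 0.52 in shCdGAP replicate 1, 0.09 in replicate 2 and 0.11 in replicate 3. Without shCdGAP replicate 1, 12 pathway genes rose (29.3%, where 19.9% of all tested genes were called) and 9 fell (22.0%, where 21.9% were called). All 11 and all 3 called on 6 libraries were among them. With the replicate number as a block 11 rose and 3 fell (9.47% and 10.9% of all tested genes), and with DESeq2 11 rose and 4 fell (11.1% and 12.1%). The risen genes Tgfb2, Tgfb3, Inhbb, Bmp2, Tgfbr1, Ltbp4 and Id2, and the fallen gene Bmp7, kept their call in every alternative that was run.

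**Figure D1:**
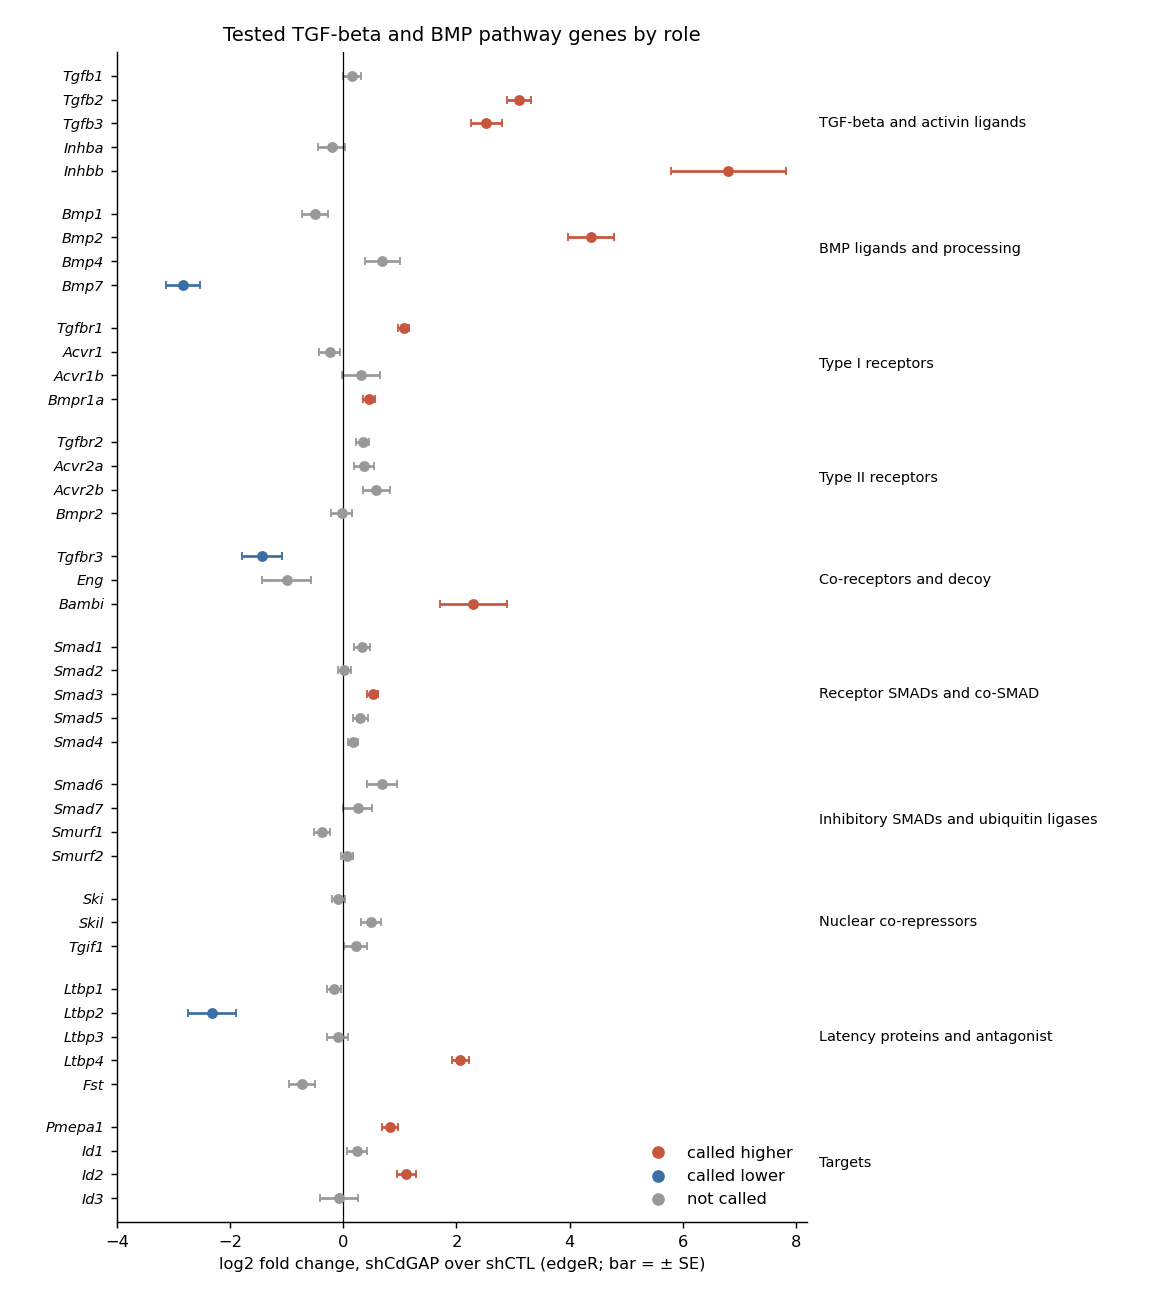
Log2 fold changes (x axis, shCdGAP over shCTL) of the 41 tested pathway genes, grouped by role down the page, with bars of ± 1 SE from edgeR. The ligands span the widest range, with Inhbb at 6.81 and Bmp7 at −2.83, while the SMADs lie between 0.02 and 0.69.

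Promoter windows from RefSeq on GRCm38.p6, running from 250 bases before to 50 after a transcription start, were at hand for 30 of the 44 genes, among them 7 of the 11 that rose. They were searched on both strands for the SMAD palindrome GTCTAGAC, for GGCGCC, a motif also bound by SMAD proteins, and for the E2 box CACCTG or CAGGTG, the core of the sites bound by ZEB repressors. The windows shown are those of a ligand, a latency protein and a target that rose, and of Smad6, an inhibitor that was highest in shCdGAP replicate 1 and whose window alone held the palindrome. The sequences run 5′ to 3′ on the gene's strand, and capitals mark a match.
Tgfb2 promoter, chr1:186705940-186706239, minus strand: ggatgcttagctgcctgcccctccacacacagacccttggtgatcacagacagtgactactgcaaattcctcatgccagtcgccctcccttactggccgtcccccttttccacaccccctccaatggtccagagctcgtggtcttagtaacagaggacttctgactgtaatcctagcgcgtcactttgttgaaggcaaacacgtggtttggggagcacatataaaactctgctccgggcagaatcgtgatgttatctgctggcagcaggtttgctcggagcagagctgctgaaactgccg
Ltbp4 promoter, chr7:27337563-27337862, minus strand: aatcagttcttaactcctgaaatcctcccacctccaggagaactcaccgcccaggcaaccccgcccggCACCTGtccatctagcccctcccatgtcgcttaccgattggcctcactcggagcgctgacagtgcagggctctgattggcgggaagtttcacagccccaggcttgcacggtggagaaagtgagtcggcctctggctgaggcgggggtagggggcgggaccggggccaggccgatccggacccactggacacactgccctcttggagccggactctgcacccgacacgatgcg
Id2 promoter, chr12:25096043-25096342, minus strand: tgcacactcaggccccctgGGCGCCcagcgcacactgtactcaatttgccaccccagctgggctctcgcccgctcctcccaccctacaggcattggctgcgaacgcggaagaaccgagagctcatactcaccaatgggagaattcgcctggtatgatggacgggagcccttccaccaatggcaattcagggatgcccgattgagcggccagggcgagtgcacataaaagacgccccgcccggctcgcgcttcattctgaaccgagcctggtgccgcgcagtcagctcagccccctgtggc
Smad6 promoter, chr9:64022010-64022309, minus strand: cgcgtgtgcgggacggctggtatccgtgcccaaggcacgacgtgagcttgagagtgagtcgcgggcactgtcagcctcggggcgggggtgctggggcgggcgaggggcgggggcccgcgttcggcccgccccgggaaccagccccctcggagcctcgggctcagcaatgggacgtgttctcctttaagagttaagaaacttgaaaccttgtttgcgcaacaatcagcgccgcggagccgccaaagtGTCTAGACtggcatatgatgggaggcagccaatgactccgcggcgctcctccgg

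The SMAD palindrome stood in 0.213% of all 32851 windows and, among the pathway genes, in that of Smad6 alone, where its first base lies 4 bases before the start. GGCGCC stood in 11.9% of all windows and in those of 10 of the 30 pathway genes, 4 of them genes that rose (Bmpr1a, Id2, Ltbp4 and Tgfbr1, counting any of a gene's windows). The E2 box stood in 20.2% of all windows and in those of Bmp4, Bmpr1b, Ltbp2 and Ltbp4. The Tgfb2 window held none of these motifs. Of the 3 Ltbp4 windows, the one furthest upstream is shown. The percentages are shares of windows, while the counts are of genes, and the 30 genes had 42 windows. The counts can thus not be read against the percentages. These are matches of letters only.

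Among the TGF-beta ligands, Tgfb2 and Tgfb3 rose in shCdGAP while no change in Tgfb1 was called. Tgfb2 (ENSMUSG00000039239, chromosome 1 from 186623186 to 186705992) was at 10.9, 14.6 and 13.7 CPM in shCdGAP replicates 1 to 3, against 1.39, 1.35 and 1.81 CPM in shCTL replicates 1 to 3. All 3 shCdGAP libraries lay far above every shCTL library, at a mean of 13.1 ± 1.92 against 1.52 ± 0.253 CPM (SD, n = 3 each), 8.65-fold higher. The log2 fold change was 3.11 ± 0.219 (SE; adjusted p = 0.00042), and 3.23 without shCdGAP replicate 1. Tgfb3 (ENSMUSG00000021253, chromosome 12 from 86056744 to 86079041) was at 15.1, 23.3 and 14.9 CPM in shCdGAP, against 2.27, 3.53 and 3.39 CPM in shCTL, with groups that did not overlap. Its mean was 5.79-fold higher (log2 fold change 2.52 ± 0.277, adjusted p = 0.00177). Tgfb1 was at 54.3, 44.6 and 42.9 CPM in shCdGAP, against 49.4, 38.2 and 39.9 CPM in shCTL, and its groups overlapped (log2 fold change 0.15 ± 0.155, adjusted p = 0.536).

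Per length of exon, Tgfb1 remained the most abundant of the 3 ligands in both groups. It supplied 69.7 ± 6.11% of their summed level (CPM per kb) in shCdGAP and 93.0 ± 1.96% in shCTL. Tgfb3 supplied 19.7 ± 4.78% in shCdGAP and 5.20 ± 1.66% in shCTL, and Tgfb2 10.5 ± 2.00% and 1.82 ± 0.402% (SD, n = 3 each). Each share was separate between the groups. A two-sided exact permutation test of 3 against 3 libraries cannot go below p = 0.1 and so adds nothing to that separation, and shares of 1 sum are not independent of each other. The summed level itself was 28, 27.4 and 24.1 CPM per kb in shCdGAP, against 20.3, 16.3 and 17.0 CPM per kb in shCTL. In bulk RNA a change in the number of cells that express a gene and a change in RNA per cell cannot be told apart.

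Of the activin subunit genes, Inhbb rose and no change in Inhba was called. Inhbb, which encodes the beta B subunit of activin and inhibin (ENSMUSG00000037035, chromosome 1 from 119415465 to 119422248), was at 2.86, 20.1 and 24.1 CPM in shCdGAP, against 0.103, 0.218 and 0.0752 CPM in shCTL. Every shCdGAP library exceeded every shCTL library, and within shCdGAP replicate 1 was far below the other 2. The gene had 1117 counts over the shCdGAP libraries and 10 over the shCTL libraries. Its log2 fold change was 6.81 ± 1.02 (adjusted p = 0.00554), and 7.31 without shCdGAP replicate 1 (adjusted p = 2.05e-06). Inhba, which encodes the beta A subunit, was at 19.1, 20.6 and 21.8 CPM in shCdGAP, against 32.2, 21.4 and 17.3 CPM in shCTL, with overlapping groups (adjusted p = 0.604). Inhbb supplied 6.52%, 31.2% and 34% of the summed subunit level per kb in shCdGAP and 0.149%, 0.473% and 0.202% in shCTL.

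Among the BMP ligand genes, Bmp2 rose and Bmp7 fell. Bmp2, a ligand known for inducing bone and for signalling in epithelial development (ENSMUSG00000027358, chromosome 2 from 133552159 to 133562885), was at 33.3, 22.9 and 12.9 CPM in shCdGAP, against 1.03, 0.982 and 1.28 CPM in shCTL. The lowest shCdGAP library was well above the highest shCTL library, and the mean was 21-fold higher (log2 fold change 4.38 ± 0.405, adjusted p = 0.00101). Bmp7 (ENSMUSG00000008999, chromosome 2 from 172868012 to 172940321), a ligand of the BMP5 to BMP7 subgroup, was at 7.33, 4.72 and 3.33 CPM in shCdGAP, against 41.0, 34.2 and 34.4 CPM in shCTL. It was lower in all 3 shCdGAP libraries, with a mean 7.12-fold lower (log2 fold change −2.83 ± 0.302, adjusted p = 0.00162). Bmp4 was at 71.5, 38.4 and 31.6 CPM in shCdGAP, against 30.3, 30.1 and 27.2 CPM in shCTL. Its groups did not overlap, but the margin was small outside shCdGAP replicate 1, and it was not called (log2 fold change 0.69 ± 0.305, adjusted p = 0.165; 0.27, adjusted p = 0.0965, without that library).

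Per kb, Bmp4 was the largest of the 3 BMP ligands in every library, at 73.2 ± 3.47% of their sum in shCdGAP and 58.3 ± 2.10% in shCTL. Bmp2 supplied 22.3 ± 3.28% in shCdGAP and 1.38 ± 0.278% in shCTL. Bmp7 supplied 4.45 ± 0.257% in shCdGAP and 40.3 ± 2.08% in shCTL. The shares of the shCdGAP libraries lay close together, although the summed level was 43.4 CPM per kb in shCdGAP replicate 1 and 24.9 and 18.7 in replicates 2 and 3, against 24.1, 22.3 and 21.1 CPM per kb in shCTL. Bmp1 is named with the BMPs but encodes a protease that matures procollagens and releases ligands from their latent complexes. It was at 66.5, 42.8 and 36.9 CPM in shCdGAP, against 72.8, 67.7 and 65.9 CPM in shCTL. Only shCdGAP replicate 1 reached the shCTL range, and Bmp1 was not called (log2 fold change −0.50, adjusted p = 0.173) unless that library was left out (−0.78, adjusted p = 0.000721).

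**Figure D2:**
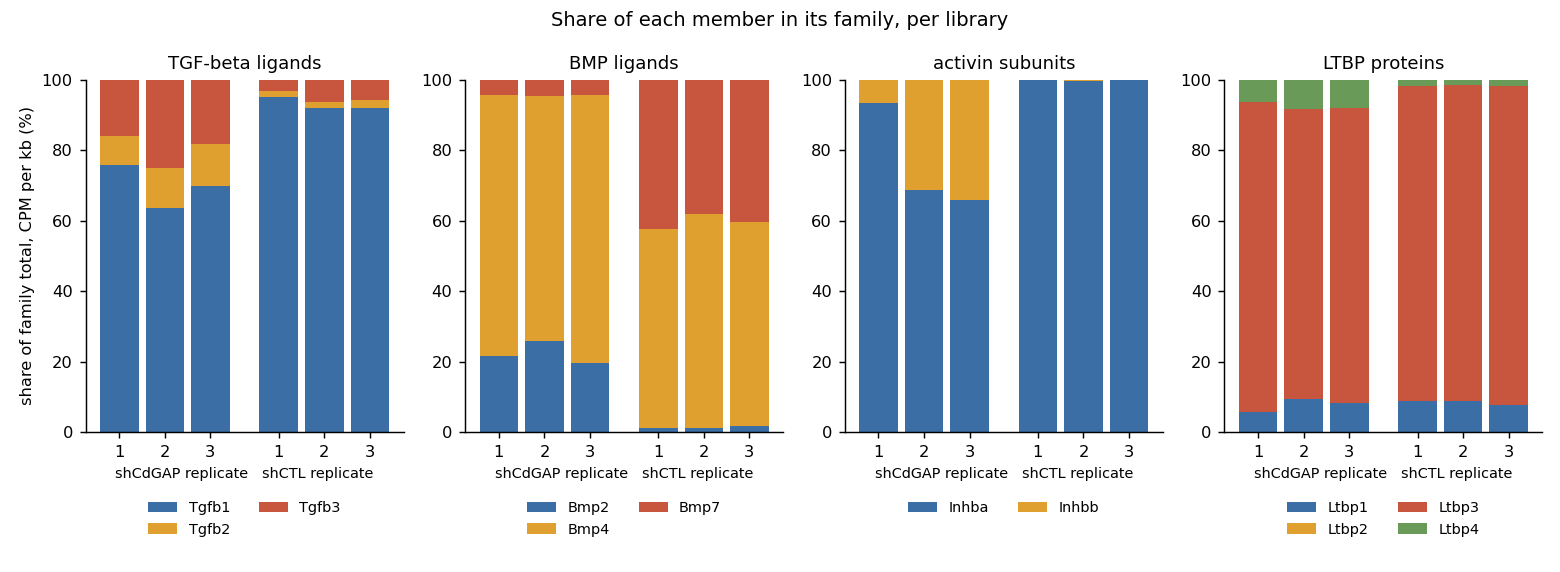
Share of each gene (y axis, percent of the family's summed CPM per kb) in TGF-beta ligands, BMP ligands, activin subunits and latent TGF-beta binding proteins, with 1 bar per library. Bmp7 fills 38.1% to 42.3% of the BMP bars in shCTL and at most 4.72% in shCdGAP, and Inhbb is under 0.5% of the activin bars in shCTL.

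Among the receptors, Tgfbr1, the type I receptor for TGF-beta, rose most evenly. Tgfbr1 (ENSMUSG00000007613, chromosome 4 from 47353222 to 47414931) was at 227, 219 and 213 CPM in shCdGAP, against 99.0, 107 and 109 CPM in shCTL. The libraries of each group lay within a narrow band and the bands were far apart, with a mean 2.09-fold higher in shCdGAP (log2 fold change 1.06 ± 0.0934, adjusted p = 0.000873). Tgfbr2, its type II partner, was at 131, 108 and 124 CPM in shCdGAP, against 88.8, 99.0 and 97.9 CPM in shCTL. Its groups did not overlap, but the call was missed (log2 fold change 0.34 ± 0.112, adjusted p = 0.0763), and it was made without shCdGAP replicate 1 (0.30, adjusted p = 0.038). Bmpr1a, a type I receptor for BMPs, was at 139, 119 and 118 CPM in shCdGAP, against 90.0, 91.7 and 93.1 CPM in shCTL. It rose 1.37-fold (log2 fold change 0.45 ± 0.104, adjusted p = 0.0254). That call was lost with the replicate number as a block (adjusted p = 0.0507), without shCTL replicate 1, 2 or 3 (0.072, 0.118 and 0.107) and without shCdGAP replicate 2 (0.0626).

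The other receptors were not called. Acvr1 and Acvr1b, type I receptors for BMPs and for activin, averaged 40.9 and 46.6 CPM in shCdGAP and 48.4 and 37.5 CPM in shCTL. The Acvr1b mean rests on shCdGAP replicate 1, at 72.4 CPM against 36.7 and 30.7 CPM in replicates 2 and 3, and its log2 fold change was 0.31 with that library and −0.14 without it. Of the type II receptors, Bmpr2 averaged 102 ± 21 CPM in shCdGAP and 104 ± 15.6 CPM in shCTL, and Acvr2a 20.1 ± 3.37 and 15.7 ± 1.85 CPM (SD, n = 3 each). Acvr2b averaged 2.98 ± 0.654 CPM in shCdGAP and 1.99 ± 0.203 CPM in shCTL. The groups of Acvr2a and Acvr2b did not overlap, with adjusted p = 0.200 and 0.142. Acvrl1, the endothelial receptor for BMP9 and BMP10, had 2 counts over the shCdGAP libraries and 15 over the shCTL libraries, and Bmpr1b had 6 and 13. Both failed the filter on low counts and so were not tested by the reported fit. With no such filter they were not called (adjusted p = 0.12 and 0.53), nor by DESeq2 (0.15 and 0.691). Per kb, Tgfbr1 supplied 46.8 ± 4.26% of the summed type I receptor level in shCdGAP and 32.8 ± 2.81% in shCTL.

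Of the co-receptors, Tgfbr3 fell and Bambi, a decoy, rose. Tgfbr3 encodes betaglycan, which presents TGF-beta2 to the signalling receptors and binds inhibin. It was at 3.53, 1.90 and 1.39 CPM in shCdGAP, against 5.73, 6.84 and 5.94 CPM in shCTL, and fell 2.71-fold (log2 fold change −1.44 ± 0.357, adjusted p = 0.0324). Without shCdGAP replicate 1, the highest of its group, the log2 fold change was −1.90 (adjusted p = 0.000355). The call was lost without any one of the other 5 libraries, with adjusted p = 0.0727, 0.119 and 0.1 without shCTL replicates 1, 2 and 3 and 0.111 and 0.058 without shCdGAP replicates 2 and 3. Eng, the endoglin co-receptor typical of endothelium, was at 2.32, 0.816 and 0.872 CPM in shCdGAP, against 2.68, 2.62 and 2.71 CPM in shCTL. It was not called on all 6 libraries (log2 fold change −1.0, adjusted p = 0.157) and was called lower without shCdGAP replicate 1 (−1.64, adjusted p = 0.00128).

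The levels of 6 endothelial markers summed to 0.76, 0.136 and 0.278 CPM in shCdGAP, against 2.17, 2.29 and 2.33 CPM in shCTL. Vwf, the largest part of each shCTL sum, was at 0.626, 0.136 and 0.119 CPM in shCdGAP, against 0.929, 1.06 and 1.28 CPM in shCTL. It was not called (adjusted p = 0.0692). One of the 6, Emcn, had no count in any library and Pecam1 was at most 0.361 CPM. Tek had 0 counts in shCdGAP and 31 over the shCTL libraries, and was called lower (adjusted p = 0.00586). Any tie of these 6 markers to the Eng and Acvrl1 levels was not tested. The summed levels of the other marker lists were 3.45 to 7.06 CPM in shCdGAP and 5.39 to 6.29 CPM in shCTL for 8 stromal markers (7 with a count in any library, Lum at 0), 6.26 to 18.1 and 18.1 to 23.3 CPM for 8 leukocyte markers (6 with a count, Adgre1 and Nkg7 at 0), and 0.179 to 0.634 and 1.46 to 2.53 CPM for 3 adipocyte markers (2 with a count, Plin1 at 0). Single markers did not all follow their sum: of the leukocyte list, Cd68 averaged 6.44 CPM in shCdGAP and 17.6 CPM in shCTL, while Itgam averaged 1.41 and 0.213 CPM and was called higher (adjusted p = 0.0079). Fabp4, the largest part of each adipocyte sum, averaged 0.377 CPM in shCdGAP and 1.99 CPM in shCTL and was called lower (adjusted p = 0.0169). The 8 epithelial markers summed to 7176 to 10980 CPM in shCdGAP and 5906 to 8416 CPM in shCTL. Bambi, a pseudoreceptor without kinase activity that blocks type I receptors, was at 5.41, 1.59 and 1.67 CPM in shCdGAP, against 0.722, 0.4 and 0.64 CPM in shCTL. All 3 shCdGAP libraries were higher, replicate 1 most so, and the log2 fold change was 2.30 ± 0.594 (adjusted p = 0.0371) or 1.5 without that library (adjusted p = 0.00694). The Bambi call was lost without shCTL replicate 1, 2 or 3 (adjusted p = 0.0946, 0.141 and 0.12).

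**Figure D3:**
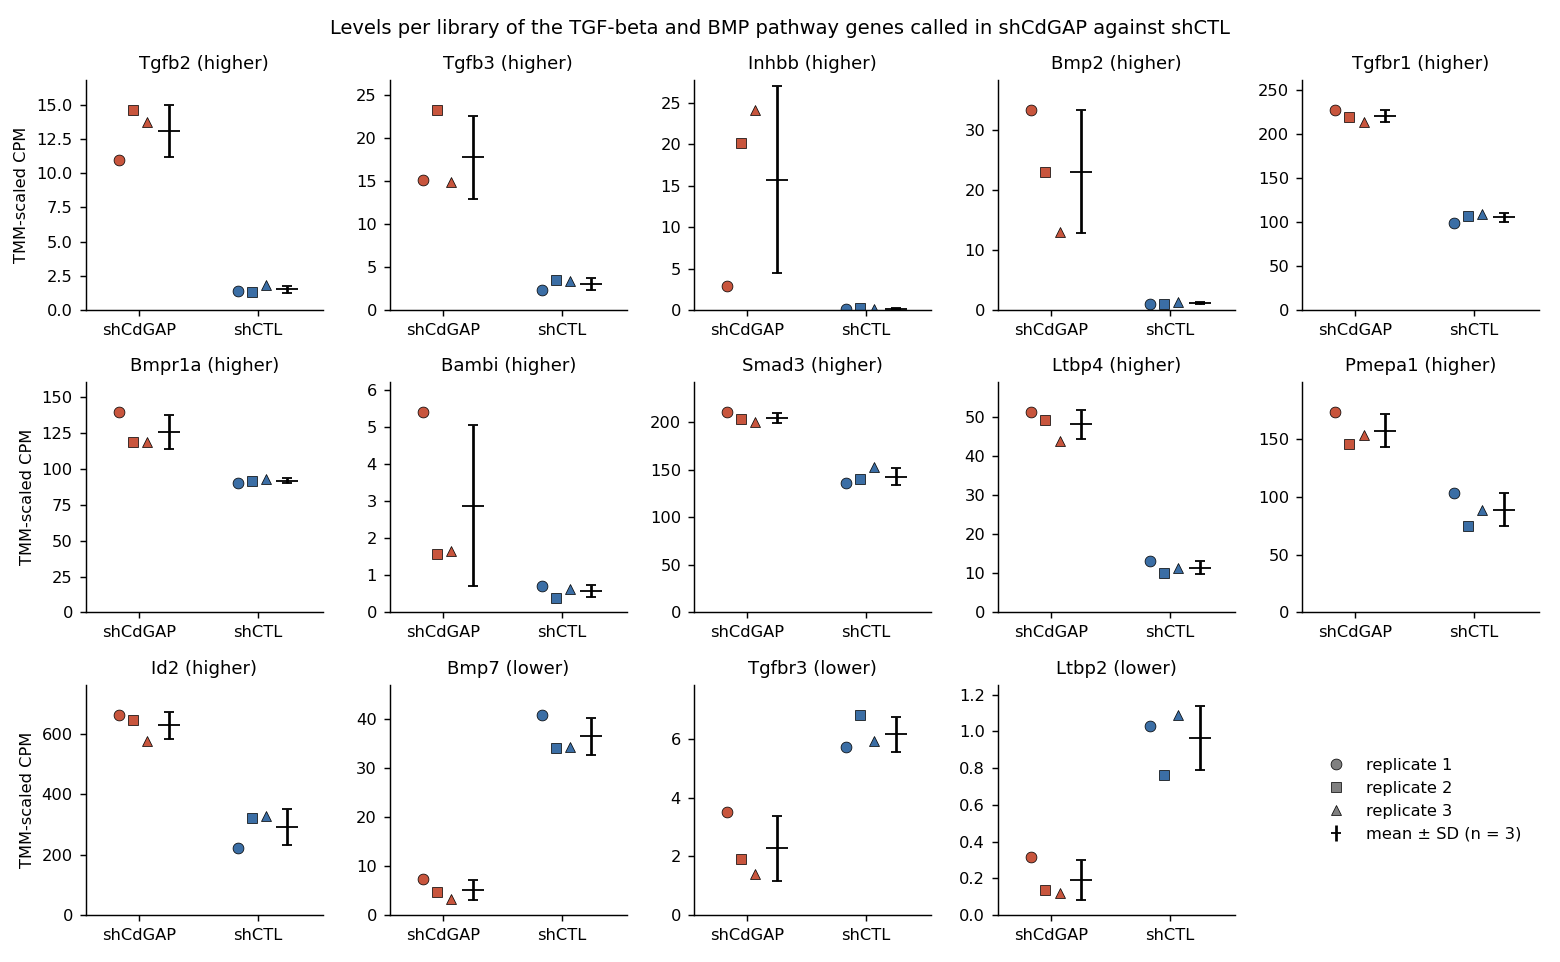
TMM-scaled CPM (y axis, from 0, a separate scale for each gene) of the 14 called genes in each library, with shCdGAP on the left and shCTL on the right of each panel; symbols mark replicates, and black bars the mean ± SD (n = 3). No panel shows overlapping groups. In the Inhbb, Bambi, Bmp7, Tgfbr3 and Ltbp2 panels shCdGAP replicate 1 lies at least 1.5 times from both replicates 2 and 3.

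Of the SMADs that carry the signal, Smad3 rose. Smad3, the SMAD that binds DNA directly in the TGF-beta branch, was at 210 (replicate 1), 203 and 200 CPM in shCdGAP, against 136, 140 and 152 CPM in shCTL, with no overlap. The mean was 1.43-fold higher (log2 fold change 0.52 ± 0.0937, adjusted p = 0.011), and the call was lost without shCTL replicate 2 (adjusted p = 0.0744). Smad2, its partner in the branch, was at 41.7, 50.1 and 50.8 CPM in shCdGAP, against 45.7, 47.4 and 47.7 CPM in shCTL (log2 fold change 0.02 ± 0.118, adjusted p = 0.939). Smad1, Smad5 and Smad4 were not called, with log2 fold changes of 0.32, 0.30 and 0.17. Smad3 was the largest of the 4 receptor-regulated SMADs per kb in every library, at 54.9 ± 0.263% of their sum in shCdGAP and 49.0 ± 1.86% in shCTL. Their summed level was 68.9, 66.6 and 66.0 CPM per kb in shCdGAP, against 52.3, 51.4 and 54.3 CPM per kb in shCTL.

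No inhibitory SMAD, ubiquitin ligase or nuclear co-repressor was called on all 6 libraries. Smad6, which blocks the BMP branch and is also its target, was at 41.0, 24.3 and 20.2 CPM in shCdGAP, against 18.1, 17.6 and 17.5 CPM in shCTL. The groups did not overlap (log2 fold change 0.69 ± 0.269, adjusted p = 0.125; 0.34, adjusted p = 0.0514, without shCdGAP replicate 1). Smad7, the general inhibitory SMAD, was at 67.0, 37.3 and 37.4 CPM in shCdGAP, against 42.9, 34.6 and 41.6 CPM in shCTL, so that only replicate 1 lay above the shCTL range. Smurf1, a ligase that marks SMADs and receptors for degradation, averaged 73.4 ± 10.4 CPM in shCdGAP and 95.7 ± 10.6 CPM in shCTL (log2 fold change −0.38, adjusted p = 0.11), and was called lower without shCdGAP replicate 1 (−0.49, adjusted p = 0.00782). Smurf2, the related ligase, averaged 62.6 ± 1.97 and 59.7 ± 5.23 CPM (SD, n = 3 each). Skil, which encodes the SMAD co-repressor SnoN and is itself a TGF-beta target, was at 159, 112 and 113 CPM in shCdGAP, against 104, 80.8 and 87.9 CPM in shCTL. It was not called (log2 fold change 0.49 ± 0.178, adjusted p = 0.102), but was with the replicate number as a block (0.48, adjusted p = 0.0378). The co-repressor genes Ski and Tgif1 had log2 fold changes of −0.09 and 0.22 with overlapping groups.

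Of the latent TGF-beta binding proteins, which hold the ligand in the matrix in inactive form, Ltbp4 rose and Ltbp2 fell. Ltbp4 (ENSMUSG00000040488, chromosome 7 from 27305136 to 27337692) was at 51.4, 49.4 and 44.1 CPM in shCdGAP, against 13.2, 10.007 and 11.4 CPM in shCTL. The groups were far apart, with a mean 4.19-fold higher in shCdGAP (log2 fold change 2.07 ± 0.15, adjusted p = 0.000446). Ltbp2, a family member that does not bind latent TGF-beta, was at 0.313, 0.136 and 0.119 CPM in shCdGAP, against 1.03, 0.764 and 1.09 CPM in shCTL. It fell (log2 fold change −2.32 ± 0.419, adjusted p = 0.0108) on 13 counts over the shCdGAP libraries and 70 over the shCTL libraries, and the call was lost without shCTL replicate 3 (adjusted p = 0.0527).

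Ltbp3 was the most abundant of the 4 in every library. It was at 569, 399 and 363 CPM in shCdGAP, against 496, 440 and 492 CPM in shCTL, and was called lower (−0.31, adjusted p = 0.0292) only without shCdGAP replicate 1. Per kb, Ltbp3 supplied 84.6 ± 2.90% of the family in shCdGAP and 89.8 ± 0.68% in shCTL, and Ltbp4 supplied 7.57 ± 1.04% and 1.74 ± 0.141% (SD, n = 3 each). Ltbp1 averaged 79.4 ± 10.1 CPM in shCdGAP and 89.2 ± 7.62 CPM in shCTL. Fst, which encodes the activin antagonist follistatin, was at 11.0, 8.30 and 6.62 CPM in shCdGAP, against 12.3, 15.8 and 15.2 CPM in shCTL. All 3 shCdGAP libraries were below the lowest shCTL library, but edgeR did not call Fst (log2 fold change −0.74 ± 0.228, adjusted p = 0.0652). It was called by DESeq2 (adjusted p = 0.0159) and by edgeR without shCdGAP replicate 1 (−0.94, adjusted p = 0.00316).

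Among the targets, Id2 and Pmepa1 rose. Id2 (ENSMUSG00000020644, chromosome 12 from 25093801 to 25096092), which encodes an inhibitor of basic helix-loop-helix factors that TGF-beta represses and BMP induces in epithelial cells, was at 664, 645 and 578 CPM in shCdGAP, against 222, 321 and 328 CPM in shCTL. It was higher in all 3 shCdGAP libraries and its mean was 2.17-fold higher (log2 fold change 1.12 ± 0.172, adjusted p = 0.00618). Pmepa1, a TGF-beta target whose product dampens SMAD activation, was at 173, 145 and 153 CPM in shCdGAP, against 103, 75.0 and 88.5 CPM in shCTL. It rose 1.77-fold (log2 fold change 0.82 ± 0.146, adjusted p = 0.0103), a call lost without shCTL replicate 3 (adjusted p = 0.0536). Tgfbi, a matrix protein gene named for its induction by TGF-beta, had 1 count over the shCdGAP libraries and 1 over the shCTL libraries and did not pass the filter on low counts.

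Id1 and Id3, the BMP-responsive relatives of Id2, were not called on all 6 libraries. Id1 was at 274, 198 and 190 CPM in shCdGAP, against 165, 197 and 197 CPM in shCTL (log2 fold change 0.24 ± 0.171, adjusted p = 0.371). Id3 was at 127, 61.4 and 55.1 CPM in shCdGAP, against 69.4, 87.4 and 101 CPM in shCTL. Its replicate 1 lay above the shCTL range and replicates 2 and 3 below it, and without replicate 1 it was called lower (−0.55, adjusted p = 0.0205), against −0.08 with all 6 libraries (adjusted p = 0.898). Per kb, Id2 supplied 68.1 ± 4.47% of the summed level of the 3 Id genes in shCdGAP and 52.0 ± 2.53% in shCTL (SD, n = 3 each).

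The shCdGAP libraries differed among themselves mostly in 1 direction at these genes. In shCdGAP replicate 1, 11 of the 41 tested genes (26.8%) were at least 1.5 times their level in both other shCdGAP libraries, where 18.7% of all tested genes were. They were Bmp1, Bmp4, Bmp7, Acvr1b, Tgfbr3, Eng, Bambi, Smad6, Smad7, Ltbp2 and Id3. The reverse held for 1 gene, Inhbb (2.44%, where 14.2% of all tested genes were). Against the mean of replicates 2 and 3, replicate 1 was 3.33 times as high for Bambi, 2.04 for Bmp4, 1.84 for Smad6, 1.79 for Smad7 and 2.18 for Id3, and 0.129 times for Inhbb. Replicate 1 was also the library with the lowest Arhgap31 level, and with 1 such library no test of this difference was made. On the second principal component shCTL replicate 1 also lay apart from its group, on the same side.

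**Figure D4:**
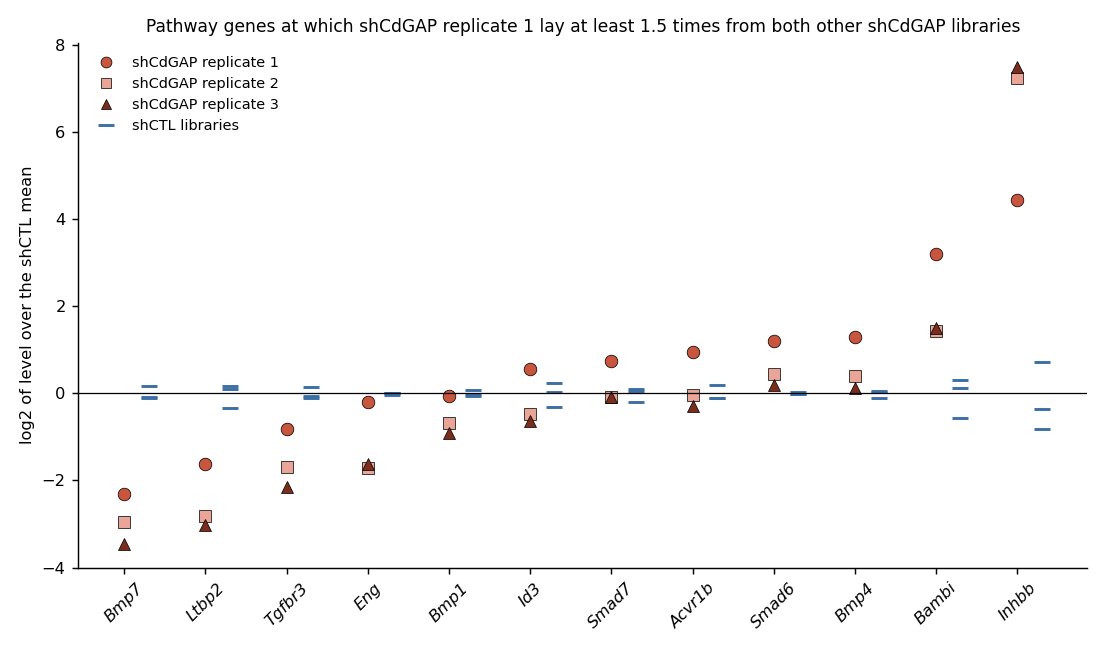
Log2 of the level over the shCTL mean (y axis) for the 12 genes at which shCdGAP replicate 1 differed at least 1.5 times from both other shCdGAP libraries; filled symbols are shCdGAP replicates 1 to 3 and dashes the shCTL libraries. For Smad7, Acvr1b and Id3 replicate 1 alone lies above all shCTL libraries, and for Inhbb it lies below replicates 2 and 3.

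A further 110 genes of the pathway, also chosen with earlier results known, served as context, and 60 of them were tested. Of these, 8 rose (13.3%, where 10.4% of all tested genes were called higher) and 15 fell (25%, where 11.4% were called lower), with a median log2 fold change of −0.03. Intracellular regulators made up 25 of the tested genes (3 rose and 4 fell) and targets 18 (3 rose and 5 fell). Activators of latent TGF-beta were listed together with fibrillin genes and made up 7 (2 rose and 3 fell, the fallen being the fibrillin gene Fbn1, Pcsk6 and Plat). The activator genes Itgb6, an integrin subunit that binds the latency peptide (31.4 ± 12.6 CPM in shCdGAP and 7.96 ± 3.55 CPM in shCTL, adjusted p = 0.028), and Thbs1, thrombospondin 1 (133 ± 80.5 and 42.1 ± 2.04 CPM, adjusted p = 0.042), rose. Thbs1 was at 217, 126 and 56.7 CPM in shCdGAP replicates 1 to 3. The targets Fn1 (adjusted p = 0.00169), Id4 (0.0095) and Ccn2 (0.0404) rose, with log2 fold changes of 1.87, 1.38 and 0.89. So did the regulators Hipk2, a kinase (1.25, adjusted p = 0.00689), Stub1, a ubiquitin ligase (0.69, adjusted p = 0.0168), and Zfyve16, an endosomal SMAD anchor (0.57, adjusted p = 0.0314).

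The 8 fallen genes with the smallest p-values included the ligand gene Gdf11, at 26.0, 29.5 and 28.7 CPM in shCdGAP, against 61.2, 61.6 and 60.7 CPM in shCTL. Its log2 fold change was −1.12 ± 0.105 (adjusted p = 0.00104). Tgif2, a SMAD co-repressor gene related to Tgif1, averaged 5.24 ± 0.707 CPM in shCdGAP and 17.1 ± 3.49 CPM in shCTL (SD, n = 3 each; adjusted p = 0.00293). Angptl4, a TGF-beta target in breast cancer cells, averaged 15.8 ± 6.41 and 84.7 ± 5.85 CPM (adjusted p = 0.00378). Snai1 and Hmga2, target genes that promote epithelial-mesenchymal transition, had log2 fold changes of −1.06 and −1.58 (adjusted p = 0.00366 and 0.0102). The fibrillin gene Fbn1, the BMP antagonist gene Chrd and the homeobox target Msx1 were at or near 0 in shCdGAP and averaged 0.999, 0.549 and 5.01 CPM in shCTL. The 8 fallen genes with the smallest p-values, and Fn1 and Hipk2, kept their call with any 1 library left out. Id4 lost it without shCTL replicate 2 (adjusted p = 0.056). Stub1, Zfyve16 and Thbs1 lost it without any one of the shCTL libraries or shCdGAP replicate 2 (highest adjusted p = 0.0898, 0.136 and 0.134), and Thbs1 also with the replicate number as a block (0.0761). Itgb6, Ccn2, Pcsk6 and Plat kept it only without shCdGAP replicate 1 (highest adjusted p = 0.0875, 0.152, 0.102 and 0.0935).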

How the data were processed

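Per the file headers, the deposited values are raw fragment counts per gene, made with featureCounts 1.4.6 from TopHat alignments, the Ensembl release 77 annotation of GRCm38 and strand setting 2. The submitters' processing notes also list TopHat2 2.0.14, Trimmomatic 0.30 and CASAVA 1.8, among others, with no role or order. The library kit is given only as standard Illumina, so strand marking cannot be checked from the labels. Symbols from GENCODE M21 matched 40254 of 41214 genes.

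From the counts, edgeR 4.0.16 in R 4.3.3 kept genes by filterByExpr (minimum count 10, minimum total 15), scaled libraries by TMM and compared shCdGAP with shCTL by the quasi-likelihood F test, with Benjamini-Hochberg adjustment over 13483 genes; single-gene adjusted p-values are from this fit unless DESeq2 1.42.0 is named. Calls used a threshold of 0.05 on the adjusted p. The SE was taken from each gene's F value, as the size of its log2 fold change over the root of F. TMM-scaled CPM served as levels, divided by exon length for CPM per kb, with SD over n = 3. One count was worth 0.0364 to 0.0516 CPM on this scale. A count of 0 allows up to 3 counts, for counting error only. Both tools were also run on simulated counts with known changes, which does not test the calls made here. No libraries agreed within sampling noise (chi-square per degree of freedom at least 3.16).

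Same-numbered libraries correlated at 0.36, 0.29 and 0.25 in their deviations from the group means, all above 0.1, the bound used here for pairs. The labels name no shared batch, and replicates 2 and 3 also correlated across numbers (0.25 and 0.19). The values thus part replicate 1 from replicates 2 and 3 and do not tie 2 to 2 or 3 to 3, so pairing was not shown. The reported fit has no block and its p-values take no account of any pairing, and the fit with a block is an alternative. The genes, lists and rules were chosen with earlier results of these data known. The rule named all 44 genes and, of 110 further pathway genes, up to 8 called in each direction with the smallest adjusted p. Pcsk6 and Plat were named outside that rule, since the risen activator genes were named. Alternatives were DESeq2, RLE size factors, no filter on low counts, a replicate block and each library left out.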

Additional observations from a re-analysis of the deposited data

How the results depend on the processing

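With DESeq2, RLE size factors, no filter on low counts or the replicate block, 11 pathway genes rose in each and 3 fell, or 4 with DESeq2, which added Fst. The replicate block changed the calls of Bmpr1a (adjusted p = 0.0507) and Skil (adjusted p = 0.0378) and no other call among the 44 genes. Leaving out 1 library gave 8 to 12 risen and 1 to 9 fallen pathway genes, the 9 without shCdGAP replicate 1 and the 1 without shCTL replicate 3. Over all tested genes it gave 538 to 2753 risen and 856 to 3032 fallen, both highest without shCdGAP replicate 1, and over the further pathway genes 2 to 12 and 8 to 21. With 1 library left out the sign turned in at least 1 fit for 7 genes not called on all 6 libraries, whose log2 fold changes ran from −0.39 to 0.075 for Inhba, −0.14 to 0.54 for Acvr1b, −0.20 to 0.078 for Bmpr2, −0.031 to 0.12 for Smad2, −0.074 to 0.40 for Smad7, −0.31 to 0.027 for Ltbp3 and −0.55 to 0.14 for Id3. The cause was not tested. Of 410 repeats for single pathway genes, 372 kept direction and call. That count includes the 27 tested genes not called on all 6 libraries, for which staying uncalled counts as kept. In 16 repeats a call made on all 6 libraries was lost. Acvrl1, Bmpr1b and Tgfbi, left out by the filter on low counts, were not called without it, and with so few counts only large differences could be detected.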
